A study of Homo sapiens with 15 samples.

Results

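VIM, TWIST1, ZEB2, TNC, THBS1, DSG2, NCAM2, CFL2 and RND3 are 9 human genes of the mesenchymal cell state, the extracellular matrix, cell adhesion and the actin skeleton. They were followed across a HER2-amplified breast cancer line and 4 drug-resistant clones of it. The 9 were chosen by name, with earlier results of these arrays known, and each is represented by its probe set with the highest mean. They are 9 of 12147 genes tested and of 14884 gene symbols with a probe set. Because the choice drew on the same values, their levels and differences are given as a description, without a p. Counts of the 9 that pass the threshold of the fit over all genes are printed beside the share of all genes that do, and are no independent test. The gene lists used below were also chosen with those earlier results known. A p printed for a list gene therefore describes these arrays and is no independent test either.

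The study measured total RNA of BT474, a luminal breast carcinoma line that depends on HER2, on 15 Affymetrix gene arrays. The drug, T-DM1 (trastuzumab emtansine), is an antibody to HER2 that carries a poison of microtubules into the cell. The 5 groups had 3 arrays each, which the labels call biological replicates. One group was the drug-sensitive parental line, and the others were resistant: C#1, then C#2 and C#3, and lastly C#6, the order in which values are given below. So each comparison asks how a resistant clone differs from its parent. Each clone grew from a single BT474 cell after long exposure to T-DM1 and was then kept in 5 nM of it for 3 months, whereas no exposure is described for the parental cells. All cells shared the same medium with serum. The labels leave unsaid whether cells were still in T-DM1 when RNA was taken. Arrays of 1 clone repeat that clone alone, and no unselected clone was measured, so resistance, cloning and drug culture cannot be told apart.

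In epithelial to mesenchymal transition, cells loosen their junctions and turn on a motile program. Transcription factors of the TWIST, ZEB and SNAI families, which bind DNA at short E-box motifs, repress epithelial genes, and the cells build vimentin filaments in place of a keratin network. The matrix outside the cell is altered as well: tenascin C and thrombospondin 1 are matricellular proteins, which signal to cells more than they hold tissue together. Inside, cofilins sever actin filaments, and the Rnd proteins loosen actin stress fibres. BT474 is an epithelial line, in which most of this program is ordinarily low.

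**Figure D1:**
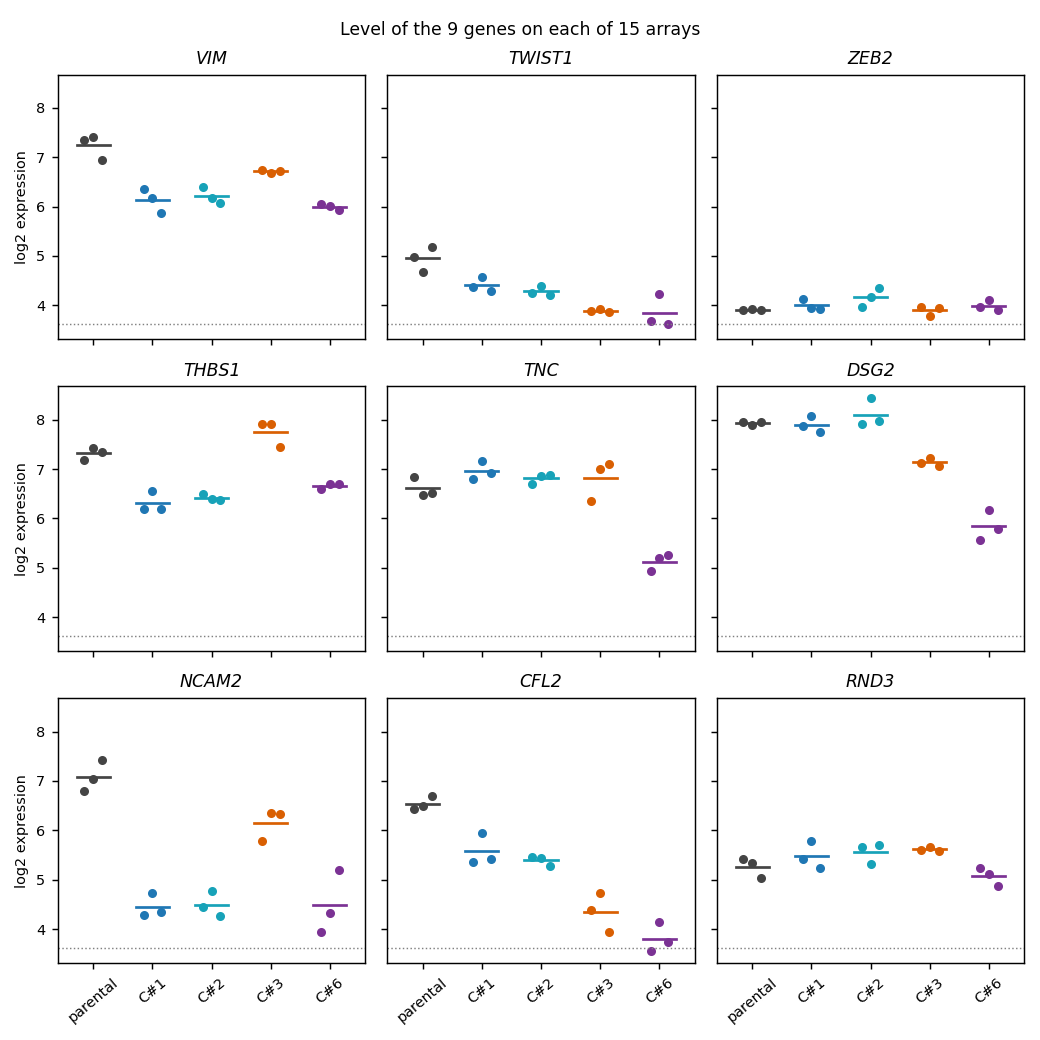
Log2 expression (vertical axis) of the 9 genes on each of the 15 arrays, by group (horizontal axis). Points are arrays, horizontal bars are group means of 3 arrays, and the dotted line is the dim threshold (the 40th percentile of an array). VIM, TWIST1, NCAM2 and CFL2 lie lower on every clone array than on every parental array, DSG2 and TNC are lowest in C#6, and THBS1 is highest in C#3.

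TWIST1 encodes a transcription factor that drives mesenchymal programs. Its log2 level was 4.99, 4.68 and 5.19 on the parental arrays. It was 4.37, 4.57 and 4.29 in C#1, and 4.25, 4.40 and 4.20 in C#2. It was 3.88, 3.92 and 3.86 in C#3, and 3.69, 4.23 and 3.62 in C#6. All 12 clone arrays lay below all parental arrays, and C#3 and C#6 came close to the dim threshold, which lay between 3.56 and 3.62. The differences from parental were −0.54 in C#1, −0.67 in C#2, −1.06 in C#3 and −1.10 in C#6 (SE 0.15 each, n = 3 and 3). In C#6 the mean level was 2.15-fold lower. In bulk RNA, fewer cells with a transcript and less transcript per cell cannot be told apart, here and for every gene that follows.

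ZEB2 encodes a zinc-finger repressor of epithelial genes and was dim throughout. Its log2 level was 3.91 ± 0.02 in the parental line, 4.01 ± 0.11 in C#1, 4.16 ± 0.20 in C#2, 3.91 ± 0.10 in C#3 and 3.99 ± 0.11 in C#6 (mean ± SD, n = 3). The group means spanned 0.26, a wider span than that of 27.6% of the tested genes. The C#1 and C#2 arrays were all above the parental arrays, but in the order of the levels no neighbouring groups were separated. The largest difference from parental was 0.25 (SE 0.11) in C#2. A level this close to the dim threshold limits what a difference in ZEB2 could show.

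Of the relatives of both factors, TWIST2 and SNAI2 were not called in any clone, with adjusted p of at least 0.192 (limma, Benjamini-Hochberg over all genes tested). Both were dim, at 3.90 and 3.83 in the parental line, so a fall in them could hardly have been seen. A gene is called here at an adjusted p below 0.05. Over all genes tested, 11.2%, 11.5%, 11% and 14.7% were called lower in the 4 clones in order, and 6.03%, 5.47%, 6.22% and 7.73% higher. The list counts below stand beside these shares. For genes named from a list, calls lost without a single array are mostly not given. A clone left unnamed for such a gene may therefore also have been called. SNAI1, the founding member of the Snail family, was called lower in C#1 (−0.70, adjusted p = 0.0255), C#3 (−0.77, 0.0155) and C#6 (−0.70, 0.0217). In C#2 it differed by −0.41 (adjusted p = 0.188). The SNAI1 calls rest on single arrays. Without parental replicate 2 or 3 each one is lost, as it is in C#1 without C#1 replicate 2 or 3, in C#3 without C#3 replicate 1 and in C#6 without C#6 replicate 3. With 1 array left out, the adjusted p of SNAI1 reached 0.120 in C#1, 0.0810 in C#3 and 0.113 in C#6. ZEB1 did not pass the filter on dim probe sets. Over the list of EMT transcription factors, TWIST1 and ZEB2 left out, 1 of 14 tested genes rose and 1 fell in C#1, 0 and 0 in C#2 (unadjusted p below 0.05 for 1 higher and 1 lower), 0 and 2 in C#3, and 1 and 2 in C#6. SOX9, a factor of progenitor cells, rose by 0.51 in C#1 and 0.60 in C#6 (adjusted p = 0.00673 and 0.00147). GSC, a homeobox factor of the embryonic organizer, fell by 0.78 in C#3 (adjusted p = 0.00166).

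VIM encodes vimentin, the intermediate filament protein that marks mesenchymal cells. Its log2 level was 7.36, 7.41 and 6.95 in the parental line. It was 6.36, 6.17 and 5.88 in C#1, and 6.40, 6.17 and 6.07 in C#2. It was 6.74, 6.67 and 6.72 in C#3, and 6.06, 6.02 and 5.93 in C#6. Every clone array lay below every parental array, and the C#3 arrays lay between the parental arrays and those of the other clones without overlap. C#1, C#2 and C#6 overlapped in pairs of neighbours. The differences were −1.10 in C#1, −1.03 in C#2, −0.53 in C#3 and −1.24 in C#6 (SE 0.14), which is 2.15-, 2.04-, 1.44- and 2.36-fold lower.

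VIM has further probe sets, both dimmer, with smaller differences of the same sign. The first, at 5.55 in the parental line, differed by −0.44, −0.40, −0.24 and −0.38 in the 4 clones in order. The second, at 3.94, differed by −0.19, −0.37, −0.02 and −0.11. When the probe sets of VIM were averaged, the differences were −0.58, −0.60, −0.26 and −0.57. The size given for VIM therefore depends on the probe set, while the sign was the same in all of these. With the probe sets averaged, VIM no longer passed limma's threshold in C#3.

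Around vimentin, the other filament genes moved both ways. Of 18 tested genes on the intermediate filament list, 1 rose and 4 fell in C#1, 1 and 1 in C#2, 1 and 2 in C#3, and 2 and 6 in C#6. KRT23, an acidic keratin, rose by 1.61 in C#1, 1.04 in C#2 and 2.25 in C#6 (adjusted p = 6.32e-05, 0.00186 and 1.10e-06). KRT15, a keratin of basal cells, fell by 1.25 in C#3 (adjusted p = 0.00119). KRT80, a keratin of differentiated epithelium, fell, with log2 differences of −0.87 in C#2 and −1.01 in C#6 (adjusted p = 0.00729 and 0.00189). Fibronectin (FN1), a matrix protein commonly read together with vimentin, differed by 0.17, 0.27, −0.21 and 0.29 in the 4 clones in order and was not called (adjusted p of at least 0.142). On the list of mesenchymal markers, with 14 tested genes, 1 rose and 1 fell in C#1, 1 and 1 in C#2, 0 and 2 in C#3, and 0 and 1 in C#6. ANXA1, an annexin that binds membrane phospholipids, fell, with log2 differences of −0.56 in C#1, −0.66 in C#2 and −0.64 in C#6 (adjusted p = 0.00661, 0.00225 and 0.00194). It is the gene that fell on this list in C#1, C#2 and C#6. Its level was 3.94 ± 0.31 in the parental line and at most 3.56 on any clone array, below the dim threshold. ANXA1 thus passed the filter on dim probe sets through the parental arrays alone, so its p and the size of its fall carry little weight. AXL, a receptor tyrosine kinase of mesenchymal cells, rose by 0.97 in C#2 (adjusted p = 1.82e-05).

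Some genes that hold epithelial identity also fell. Of 17 tested genes on the list of EMT brakes and epithelial regulators, 5 fell in C#1 and 6 in each of the other clones, while 2, 1, 0 and 1 rose. Those that rose were GRHL1 and KLF4 in C#1, KLF4 in C#2 and OVOL2 in C#6, and KLF4 was among the falls in C#3. The list's median difference was −0.15, −0.07, −0.16 and −0.29 in the 4 clones in order. The share of all genes that fell was 11.2% in C#1, 11.5% in C#2, 11% in C#3 and 14.7% in C#6. GATA3, the master regulator of luminal breast cells, was 9.12 ± 0.13 in the parental line (n = 3) and fell, with log2 differences of −2.89 in C#1, −3.14 in C#2, −0.76 in C#3 and −2.36 in C#6. Its adjusted p were 3.03e-09, 1.22e-09, 0.00183 and 1.96e-08. ESRP1, a splicing factor of epithelial cells, fell, with log2 differences of −0.35, −0.40, −0.61 and −0.62 in the same order (adjusted p from 4.83e-05 to 0.00738). ESRP2, its paralogue, fell, with log2 differences of −0.70 in C#1, −0.64 in C#2 and −0.45 in C#6 (adjusted p = 2.94e-04, 5.57e-04 and 0.00460). GRHL3, a grainyhead factor of epithelial barriers, fell, with log2 differences of −1.25 in C#2, −1.21 in C#3 and −1.05 in C#6 (adjusted p = 0.00175, 0.00223 and 0.00420).

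MicroRNAs of the miR-200 family repress ZEB mRNAs through their seed, bases 2 to 8. They were looked at after the values of these arrays had been seen. Their sequences, from RefSeq on GRCh38.p14, are shown because the family divides into 2 groups by seed; the seed is in capitals.
hsa-miR-141-3p: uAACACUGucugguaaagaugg
hsa-miR-200a-3p: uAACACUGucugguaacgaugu
hsa-miR-200b-3p: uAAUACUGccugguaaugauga
hsa-miR-200c-3p: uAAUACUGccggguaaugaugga
hsa-miR-429: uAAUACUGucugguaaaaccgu
miR-141 and miR-200a share one seed, and miR-200b, miR-200c and miR-429 share the other.

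The array reads the transcript of a microRNA gene, not the mature RNA. MIR141 was 5.82 in the parental line (SD 0.000993, n = 3) and was called lower in C#6 (5.21 ± 0.03, difference −0.61, SE 0.14, adjusted p = 0.00381). In C#2 MIR141 differed by −0.46 (adjusted p = 0.0291), a call lost without any 1 of the parental arrays, C#2 replicate 2 or C#2 replicate 3, with an adjusted p of up to 0.110. MIR200C was not called in any clone, with differences of −0.55, −0.28, 0.13 and −0.44 in the 4 clones in order (adjusted p of at least 0.143). MIR200B, near the dim threshold at 3.94 in the parental line, was not called either (adjusted p of at least 0.320). MIR200A and MIR429 were not tested. ZEB2, the gene these microRNAs are known to repress, stayed within 0.25 of parental in all clones, as given above.

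TNC encodes tenascin C, a large matricellular glycoprotein. On the parental arrays TNC read 6.84, 6.48 and 6.52 on the log2 scale. It was 6.81, 7.17 and 6.93 in C#1, 6.69, 6.85 and 6.88 in C#2, and 6.36, 7.0 and 7.10 in C#3. In C#6 it was 4.93, 5.19 and 5.25. The parental, C#1, C#2 and C#3 arrays overlapped, and the C#6 arrays stood below all of them. C#6 differed from parental by −1.49 (SE 0.17), or 2.81-fold, and lay below C#1 by 1.84, which is the full range of the group means. The differences of the other clones were 0.35, 0.20 and 0.21 in C#1, C#2 and C#3, each with an SE of 0.17.

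THBS1 encodes thrombospondin 1, a matricellular protein that can activate latent TGF-beta and binds CD47. The parental arrays gave THBS1 log2 levels of 7.18, 7.43 and 7.35. It was 6.20, 6.56 and 6.18 in C#1, and 6.50, 6.39 and 6.37 in C#2. It was 7.91, 7.92 and 7.45 in C#3, and 6.60, 6.71 and 6.70 in C#6. The C#3 arrays were all above the parental arrays, and those of C#1, C#2 and C#6 all below. The differences were −1.01 in C#1, −0.90 in C#2, 0.44 in C#3 and −0.65 in C#6 (SE 0.13). The lowest C#3 array exceeded the highest parental array by little, as their values of 7.45 and 7.43 show.

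The relatives of TNC and THBS1 were not called. THBS2 and THBS3, a trimeric and a pentameric thrombospondin, had differences between −0.19 and 0.14, with adjusted p of at least 0.383. The tenascins TNN and TNXB had differences between −0.19 and 0.29, with adjusted p of at least 0.152. TNR and the tenascin receptor genes ITGA9, ITGAV and ITGB1 were not analysed here. CD47, the cell-surface receptor of thrombospondin 1, was 7.74 ± 0.08 in the parental line and 5.98 ± 0.14 in C#6 (n = 3), a fall of 1.76 (SE 0.10, adjusted p = 8.60e-09). It fell by 0.41 in C#3 (adjusted p = 0.0113) and differed by −0.19 in C#1 and −0.07 in C#2 (adjusted p = 0.237 and 0.705). In the direct comparison CD47 was higher in C#3 than in C#6 by 1.36 (adjusted p = 5.00e-07). C#3 had the highest mean level of THBS1, 7.76, with CD47 at 7.34, and C#6 had THBS1 at 6.67 with CD47 at 5.98. THBS1 was lower still in C#1 and C#2, at 6.31 and 6.42, where CD47 read 7.56 and 7.68. THBS1 and CD47 thus did not run in parallel over the groups.

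Matrix genes outside the 9 are given by list. On the matricellular list, with 15 tested genes, 1 rose in C#1 and 1 in C#2, and none was called in C#3 or C#6 by limma (0 at an unadjusted p below 0.05 in C#3, and 1 higher in C#6). The gene that rose was FBLN1, an extracellular fibulin, by 0.77 in C#1 and 0.88 in C#2 (adjusted p = 0.00147 and 5.34e-04). The list of collagens, laminins and basement membrane holds 35 genes, of which only 5 had a symbol here and 4 were tested. Most of the list was therefore not assessed. Of the 4 tested genes, 1 was called, HSPG2 (perlecan), higher by 0.40 in C#2 (adjusted p = 0.0415). The HSPG2 call is lost without any 1 of 8 arrays, the 3 parental arrays among them, with an adjusted p of up to 0.167. Wherever limma called 0 genes of a pathway list in a direction against parental, that list held from 0 to 2 genes with an unadjusted p below 0.05 in that direction. On the matrix receptor list, with 14 tested genes, 4, 4, 5 and 5 fell in the 4 clones in order, and 2, 2, 0 and 1 rose. The median of the receptor list was −0.08, −0.10, −0.22 and −0.30. Over all genes, 11.2%, 11.5%, 11% and 14.7% were called lower in the 4 clones in order. GPC6, a glypican that carries heparan sulfate at the membrane, fell, with log2 differences of −2.87, −2.86, −1.91 and −3.0 in the same order (adjusted p from 2.90e-09 to 1.09e-06). SDC2, a syndecan with the same kind of sugar chain, fell, with log2 differences of −1.27, −1.30, −0.76 and −1.55 (adjusted p from 4.17e-07 to 6.71e-04). GPC4 went the other way and rose by 0.78 in C#1 and 1.54 in C#6 (adjusted p = 7.39e-04 and 7.62e-07). Of 20 tested matrix remodelling genes, 2 rose and 2 fell in C#1, 2 and 1 in C#2, 0 and 4 in C#3, and 4 and 3 in C#6. TIMP1, an inhibitor of matrix metalloproteinases, fell, with log2 differences of −1.17 in C#3 and −1.21 in C#6 (adjusted p = 9.13e-04 and 4.19e-04). TIMP2, from the same family, rose by 1.13 in C#1 and 1.04 in C#2 (adjusted p = 3.36e-04 and 6.50e-04). LOXL4, a lysyl oxidase that crosslinks matrix, fell, with log2 differences of −1.05 in C#1 and −1.20 in C#3 (adjusted p = 0.00984 and 0.00406). MMP16, a membrane-bound metalloproteinase, fell, with log2 differences of −0.72 in C#1, −0.69 in C#2 and −0.57 in C#6 (adjusted p = 0.00171, 0.00235 and 0.00601). It read 4.63 in the parental line and 3.91, 3.94 and 4.06 in these clones. Those levels lie near the dim threshold, which limits the size of the fall.

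The 4 genes with the widest range of group means were CFL2, NCAM2, DSG2 and TNC, and their promoters are shown here because they let a reader look for the E-boxes that TWIST, ZEB and SNAI proteins bind. Each sequence is the 250 bases before the gene's start, from RefSeq on GRCh38.p14 and written along the gene's strand, with matches to CANNTG in capitals. CANNTG is its own reverse complement in form, so both strands are covered.
DSG2, chr18:31497927-31498176, plus strand: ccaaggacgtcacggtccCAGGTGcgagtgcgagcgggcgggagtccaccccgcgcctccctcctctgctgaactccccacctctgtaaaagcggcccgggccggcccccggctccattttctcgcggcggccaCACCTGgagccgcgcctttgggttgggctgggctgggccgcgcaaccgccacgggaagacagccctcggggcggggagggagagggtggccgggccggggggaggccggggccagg
CFL2, chr14:34714594-34714843, minus strand: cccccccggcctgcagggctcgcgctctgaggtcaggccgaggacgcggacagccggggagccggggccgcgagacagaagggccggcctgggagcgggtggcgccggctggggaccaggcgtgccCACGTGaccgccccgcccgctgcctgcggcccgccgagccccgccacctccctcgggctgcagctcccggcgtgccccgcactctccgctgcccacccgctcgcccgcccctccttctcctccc
TNC, chr9:115118158-115118407, minus strand: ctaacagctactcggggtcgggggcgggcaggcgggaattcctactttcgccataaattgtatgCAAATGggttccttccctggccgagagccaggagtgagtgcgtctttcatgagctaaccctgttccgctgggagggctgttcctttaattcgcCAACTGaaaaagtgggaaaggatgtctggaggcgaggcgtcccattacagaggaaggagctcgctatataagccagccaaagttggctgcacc
NCAM2, chr21:21146912-21147161, plus strand: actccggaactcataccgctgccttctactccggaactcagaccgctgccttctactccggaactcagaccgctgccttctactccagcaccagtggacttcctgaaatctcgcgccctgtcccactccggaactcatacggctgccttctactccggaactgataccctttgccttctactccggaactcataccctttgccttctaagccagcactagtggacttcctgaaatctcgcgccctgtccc
The DSG2 window holds 2 matches, 232 and 116 bases before the start, the first reading CAGGTG and the second CACCTG, which is the same E-box on opposite strands. The CFL2 window holds 1 match, CACGTG, and the TNC window 2. The NCAM2 window holds none. Of 35116 promoter windows of this length, 61.8% hold CANNTG and 17.5% hold CACCTG or CAGGTG. Among the members with a promoter sequence, 8 of the 9, the CACCTG or CAGGTG form was found at DSG2 alone. ZEB2 has 1 CANNTG match of another form, and VIM, THBS1 and RND3 have none. CFL2 and RND3 have 2 start sites each, and the first is the one shown for CFL2. A match describes letters in the window and not binding.

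DSG2 encodes desmoglein 2, a cadherin of desmosomes, the junctions that tie the keratin filaments of neighbouring cells together. Parental log2 levels of DSG2 were 7.96, 7.89 and 7.95. It was 7.86, 8.08 and 7.74 in C#1, and 7.91, 8.43 and 7.97 in C#2. It was 7.12, 7.23 and 7.06 in C#3, and 5.57, 6.16 and 5.78 in C#6. Parental, C#1 and C#2 arrays overlapped, C#3 lay below all of them, and C#6 lay below C#3. The differences were −0.03 in C#1, 0.17 in C#2, −0.79 in C#3 and −2.09 in C#6 (SE 0.15). C#6 was 4.26-fold lower than parental.

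Of the partners of DSG2 in the desmosome, DSC2 and desmoplakin were called higher, and plakoglobin and plakophilin 2 were called lower, in the clones given below. DSC2, the desmocollin that pairs with desmoglein 2, was 9.69 ± 0.05 in the parental line and differed in all 4 clones, by 0.65 in C#1, 0.48 in C#2, 0.56 in C#3 and 0.46 in C#6 (adjusted p = 0.00229, 0.0171, 0.00663 and 0.0162). The C#2 call of DSC2 is lost without parental replicate 1 or 3 or C#2 replicate 2 or 3 (adjusted p up to 0.0730), and the C#6 call without parental replicate 3 or C#6 replicate 2 (up to 0.0593). Desmoplakin (DSP), the linker to keratin, rose by 0.45 in C#1 (adjusted p = 0.00552), and its calls of 0.38 in C#2 and 0.40 in C#3 rest on 1 or 2 arrays. The C#2 call of DSP is lost without parental replicate 3 or C#2 replicate 2 (adjusted p up to 0.0556), and the C#3 call without C#3 replicate 1 (0.0665). In C#6 DSP differed by 0.25 (adjusted p = 0.0875).

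Plakoglobin (JUP), which binds the tails of the desmosomal cadherins, fell, with log2 differences of −0.55 in C#3 and −0.70 in C#6 (adjusted p = 0.00426 and 5.21e-04). In C#1 and C#2 the JUP calls of −0.41 and −0.38 are lost without any 1 of the parental arrays, without C#1 replicate 3, or without C#2 replicate 2 or 3 (adjusted p up to 0.119 and 0.120). Plakophilin 2 (PKP2), which anchors desmoplakin, fell, with log2 differences of −0.48 in C#1, −0.53 in C#3 and −1.09 in C#6 (adjusted p = 0.00863, 0.00511 and 8.19e-06) and differed by −0.34 in C#2 (0.0584). PKP2 was lower in C#6 than in each other clone, by 0.60 against C#1, 0.75 against C#2 and 0.56 against C#3 (adjusted p = 0.00251, 5.18e-04 and 0.00571), so that DSG2 and PKP2 both had their lowest level in C#6. DSC3 did not pass the filter on dim probe sets. Of 9 tested desmosome genes besides DSG2, 2 rose and 2 fell in C#1, 2 and 1 in C#2, 4 and 2 in C#3, and 1 and 2 in C#6.

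**Figure D2:**
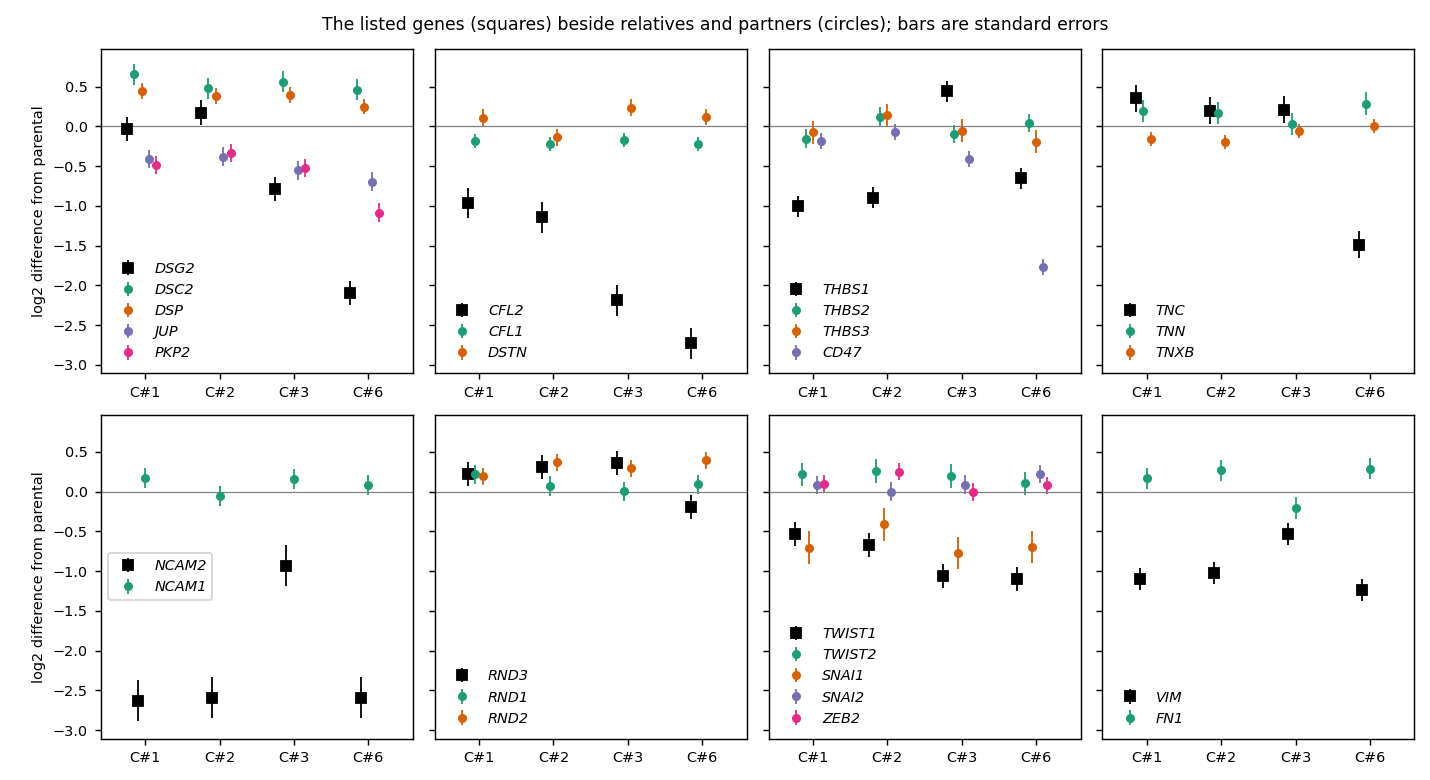
Log2 difference from parental (vertical axis) in each clone (horizontal axis) for the listed genes (squares) and their relatives or partners (circles), with standard errors as bars. DSG2 lies at −2.09 in C#6 and DSC2 at 0.46, CFL2 lies at −2.73 in C#6 and CFL1 at −0.22, and CD47 lies at −1.76 in C#6. In the parental line CFL1 read 4.80 and NCAM1 3.55, low levels that limit how far they could fall.

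NCAM2 encodes a neural cell adhesion molecule of the immunoglobulin family, known mainly from olfactory neurons. In the parental line NCAM2 had log2 levels of 6.79, 7.04 and 7.42. It was 4.28, 4.73 and 4.34 in C#1, and 4.45, 4.77 and 4.26 in C#2. It was 5.78, 6.35 and 6.33 in C#3, and 3.95, 4.32 and 5.19 in C#6. All clone arrays lay below the parental arrays, with C#3 between the parental line and the other clones, which overlapped. The differences were −2.63 in C#1, −2.59 in C#2, −0.93 in C#3 and −2.60 in C#6 (SE 0.26), or 6.20-, 6.02-, 1.91- and 6.05-fold. The C#6 arrays had an SD of 0.64, above the pooled SD of NCAM2 over the groups, 0.38.

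NCAM1, the closest relative of NCAM2, was not called, with differences between −0.05 and 0.17 (adjusted p of at least 0.408). It read 3.55 ± 0.18 in the parental line, where the dim threshold lay between 3.56 and 3.58. A fall in NCAM1 could therefore not have been seen. Of 20 tested immunoglobulin-type adhesion genes besides NCAM2, 1 rose and 5 fell in C#1, 3 and 3 in C#2, 2 and 6 in C#3, and 3 and 5 in C#6. CNTN1, a contactin of neural membranes, fell, with log2 differences of −1.17 in C#3 and −1.47 in C#6 (adjusted p = 3.12e-04 and 2.12e-05), and differed by 0.03 in C#1 and −0.38 in C#2. CNTN3, another contactin, fell, with log2 differences of −0.78 in C#3 and −1.01 in C#6 (adjusted p = 0.00107 and 6.87e-05). It went from 4.53 ± 0.09 in the parental line to 3.76 ± 0.21 in C#3 and 3.53 ± 0.10 in C#6. These clone levels lie near the dim threshold, which limits the size of the fall. ALCAM, an adhesion molecule that binds itself and CD6, rose by 0.63 in C#1 and 0.83 in C#3 (adjusted p = 0.00214 and 2.74e-04). Its calls of 0.39 in C#2 and 0.35 in C#6 are lost without some single arrays. ICAM3, a ligand of leukocyte integrins, rose by 0.59 in C#2, 0.89 in C#3 and 0.69 in C#6 (adjusted p = 0.00759, 4.28e-04 and 0.00198). Of 19 tested genes of adherens and tight junctions, 3 rose in each of C#1, C#2 and C#6 and 2 in C#3, while 2 fell in each clone. CRB3, a polarity protein of the apical membrane, rose in all 4 clones, by 0.65, 0.68, 0.74 and 0.83 in order (adjusted p from 2.38e-04 to 0.00254). Of the tight junction proteins, MARVELD2 (tricellulin) fell by 0.72 in C#2 (adjusted p = 0.00218), and MARVELD3 rose by 0.61 in C#3 and 0.66 in C#6 (adjusted p = 0.00117 and 3.99e-04). The MARVELD2 call of −0.59 in C#1 is lost without parental replicate 3. NECTIN3, an adhesion protein of adherens junctions, fell by 0.66 in C#6 (adjusted p = 0.00469). Its calls of −0.54 in C#2 and −0.52 in C#3 are lost without some single arrays. CDH1 and CDH2, the E- and N-cadherin genes, were not analysed here.

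CFL2 encodes cofilin 2, the muscle-type cofilin, which severs and depolymerises actin filaments. CFL2 stood at 6.43, 6.49 and 6.69 on the log2 scale in the parental line. It was 5.35, 5.94 and 5.42 in C#1, and 5.45, 5.45 and 5.27 in C#2. It was 4.39, 4.72 and 3.94 in C#3, and 3.55, 4.14 and 3.73 in C#6. All clone arrays lay below the parental arrays, C#1 and C#2 overlapped, and C#3 and C#6 lay below both and overlapped each other. The differences were −0.97 in C#1, −1.15 in C#2, −2.19 in C#3 and −2.73 in C#6 (SE 0.19), or 1.95-, 2.21-, 4.56- and 6.64-fold. One C#6 array was below its dim threshold, so the C#6 difference is measured at the lower end of the scale.

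The other members of the cofilin family were not called. CFL1, the cofilin of most cells, differed by −0.18, −0.22, −0.18 and −0.22 in the 4 clones in order and was not called (adjusted p of at least 0.0839). All its clone arrays nevertheless lay below all parental arrays. CFL1 read 4.80 ± 0.03 in the parental line, where CFL2 had a mean of 6.54, and the median of the tested genes was 5.95. How well this probe set reads CFL1 was not tested, so a fall limited to CFL2 cannot be read from it. Destrin (DSTN) differed by between −0.14 and 0.23 and was not called (adjusted p of at least 0.155). On the list of cofilin and actin turnover, CFL2 left out, 5 of 17 tested genes fell in C#1, 5 in C#2, 2 in C#3 and 8 in C#6, and 0, 0, 1 and 1 rose. The list's median was −0.18, −0.21, −0.09 and −0.32. Over all genes, 11.2%, 11.5%, 11% and 14.7% were called lower in the 4 clones in order. In C#1 and C#2, where limma called none higher, 1 gene each was higher at an unadjusted p below 0.05. TESK2, a kinase that phosphorylates and so inactivates cofilin, fell, with log2 differences of −0.70 in C#3 and −1.09 in C#6 (adjusted p = 1.46e-04 and 1.11e-06). LIMK1, the LIM kinase with the same substrate, fell by 0.72 in C#6 (adjusted p = 0.00117). Its calls of −0.41 in C#1 and −0.44 in C#2 are lost without some single arrays. Gelsolin (GSN), which severs and caps actin, rose by 0.80 in C#3 and 0.51 in C#6 (adjusted p = 1.45e-04 and 0.00287). Profilin 1 (PFN1), which loads actin monomers, fell, with log2 differences of −0.64 in C#1 and −0.62 in C#2 (adjusted p = 0.00116 and 0.00162).

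RND3 encodes an Rnd protein that lowers the tension of the actin skeleton. Its log2 level was 5.26 ± 0.20 in the parental line, 5.48 ± 0.28 in C#1, 5.57 ± 0.21 in C#2, 5.62 ± 0.05 in C#3 and 5.07 ± 0.18 in C#6 (mean ± SD, n = 3). The differences from parental were 0.22, 0.31, 0.36 and −0.19 (SE 0.15). The C#3 arrays, 5.60, 5.67 and 5.58, were all above the parental arrays, 5.42, 5.33 and 5.03, and the arrays of the other clones overlapped them. The group means spanned 0.55, a wider span than that of 75% of the tested genes.

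RND1 was not called (differences from 0.00 to 0.22, adjusted p of at least 0.252). RND2 was dim, at 3.91 in the parental line, and was called higher in C#2 by 0.37 and in C#6 by 0.39 (adjusted p = 0.0258 and 0.0139). These RND2 calls are lost without some single arrays, any of the parental arrays or C#2 replicate 1 or 3 in C#2 (adjusted p up to 0.0909) and parental replicate 2 or C#6 replicate 2 in C#6 (up to 0.0748). On the TGF-beta list, with 23 tested genes, 1 rose and 1 fell in C#1, 3 and 2 in C#2, 1 and 2 in C#3, and 0 and 3 in C#6. SMAD6, an inhibitor of this signalling, fell, with log2 differences of −1.10 in C#3 and −0.64 in C#6 (adjusted p = 2.43e-04 and 0.00877). BAMBI, a decoy receptor that also inhibits it, went the other way and rose by 0.66 in C#1 (adjusted p = 0.00361). Its calls of 0.59 in C#2 and 0.49 in C#3 are lost without parental replicate 3, and in C#3 also without parental replicate 2 or C#3 replicate 1 or 3 (adjusted p up to 0.0506 and 0.128).

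**Figure D3:**
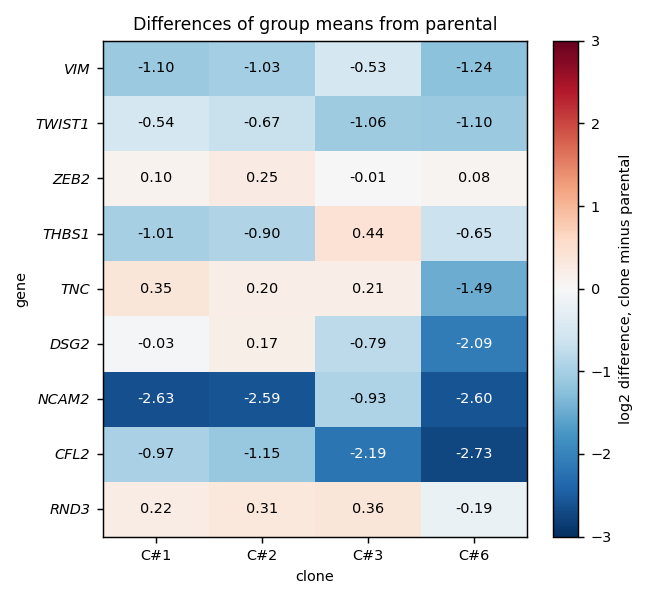
Log2 difference of group means, clone minus parental, for the 9 genes (rows) in the 4 clones (columns). Blue is lower and red higher than parental. C#1 and C#2 have nearly the same values in each row, NCAM2 is −2.59 or below in C#1, C#2 and C#6, and CFL2 and DSG2 are lowest in C#6 at −2.73 and −2.09.

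Side by side, the 9 genes had a median difference of −0.54 in C#1, −0.67 in C#2, −0.53 in C#3 and −1.24 in C#6. Over all genes tested the medians were −0.02, −0.02, −0.00 and −0.02. Past limma's threshold 5 members were lower and 0 higher in C#1, where 11.2% of all genes were lower and 6.03% higher. In C#2 the counts were 5 and 0, with 11.5% of all genes lower and 5.47% higher. In C#3 they were 5 and 1, with 11% of all genes lower and 6.22% higher. In C#6 they were 7 and 0, with 14.7% lower and 7.73% higher. The same comparisons chose the members, so nothing is read from these counts. All clone arrays lay below all parental arrays for 5 members in C#1 (21.8% of all genes), 5 in C#2 (22.1%), 5 in C#3 (22.3%) and 7 in C#6 (24.1%). VIM, TWIST1, NCAM2 and CFL2 did so in all 4 clones, as did 7.85% of all genes. At least 2-fold lower were 3 members in C#1 (0.799% of all genes), 3 in C#2 (0.971%), 2 in C#3 (1.02%) and 6 in C#6 (1.61%). The C#3 count of 5 lower was 3 without parental replicate 2, where VIM and NCAM2 were no longer called, and the 1 higher member of C#3, THBS1, was not called without parental replicate 1 or 3 or C#3 replicate 1 or 2, which gives 0. The C#2 count of higher members was 1 without C#2 replicate 1.

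C#1 and C#2 were close to each other in every one of the 9 genes. Their means differed by at most 0.21, in DSG2, and the arrays overlapped for each gene. Between them limma called 0 of the 9 genes and 0% of all genes, 807 of which had an unadjusted p below 0.05. It called 0 of the 222 list genes, with 17 at an unadjusted p below 0.05. C#3 was the clone nearest to parental in VIM and NCAM2 and the only one with THBS1 above parental, while in CFL2 and TWIST1 it lay beside C#6. Of the 9 genes, 3 were higher and 3 lower in C#1 than in C#3 past limma's threshold, beside 8.15% and 8.65% of all genes. C#2 had 2 higher and 3 lower than C#3, beside 6.96% and 8.79%. Nothing is read from these counts or from those against C#6 that follow. Against C#1, C#3 was 3.25-fold higher in NCAM2 and 2.72-fold higher in THBS1, and 2.33-fold lower in CFL2. Against C#6, C#1 had 4 higher and 0 lower (7.07% and 5.61% of all genes), C#2 4 and 0 (5.69% and 5.47%), and C#3 6 and 0 (4.96% and 4.06%). C#6 had the lowest mean in VIM, TWIST1, TNC, DSG2, CFL2 and RND3. Against C#3, C#6 was 3.24-fold lower in TNC, 2.46-fold lower in DSG2, 3.17-fold lower in NCAM2 and 2.13-fold lower in THBS1.

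The genes whose 4 differences lay nearest to those of a member are named by the mean absolute gap over the 4 clones. All 4 differences share the parental arrays, so this is a description of likeness. Nearest to DSG2 were PLS3, an actin-bundling plastin, MIR454 and DIAPH2, a formin that lengthens actin filaments, with gaps of 0.18, 0.18 and 0.19. PLS3 differed by 0.06, 0.10, −0.99 and −1.77 in the 4 clones in order. Nearest to NCAM2 were PTCHD1, a patched-domain membrane protein, GATA3 and MME, the membrane metallopeptidase also called CD10, with gaps of 0.26, 0.30 and 0.43. PTCHD1 differed by −2.57, −2.64, −1.50 and −2.26. Nearest to TNC were SP100, a nuclear body protein, ANKRD30A and MIR21, with gaps of 0.23, 0.23 and 0.24. ANKRD30A, known as the breast antigen NY-BR-1, differed by 0.51, 0.49, 0.52 and −1.66. Nearest to CFL2 were TMTC1, SMAGP and PM20D2, with gaps of 0.33, 0.41 and 0.45. TMTC1, a mannosyltransferase of the endoplasmic reticulum that acts on cadherins, differed by −0.94, −0.70, −2.99 and −2.69.

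**Figure D4:**
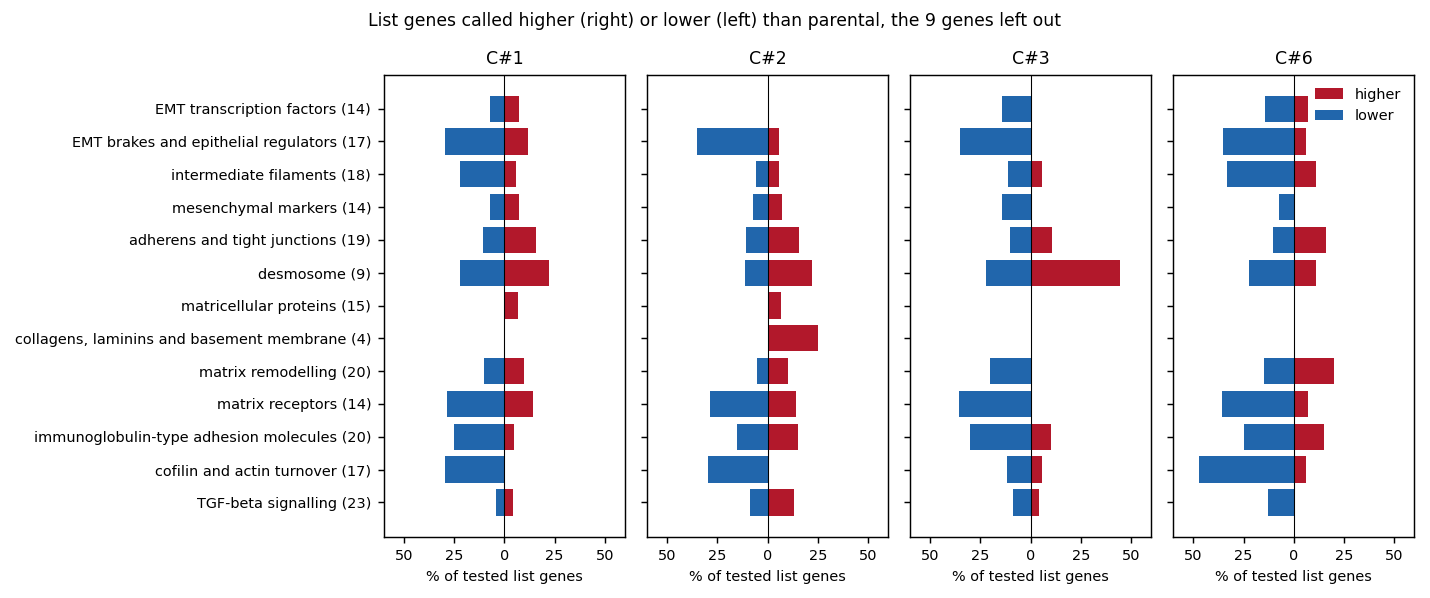
Share of tested genes on 13 of the 14 lists (number in brackets) called higher (right, red) or lower (left, blue) than parental by limma at an adjusted p below 0.05, in percent of the list, for each clone. The 9 genes are left out. In C#6, 8 of 17 genes of cofilin and actin turnover were lower, and 4 or 5 of 14 matrix receptors were lower in every clone.

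Over all 14 lists, 222 of 398 listed genes were tested, the 9 members left out. In C#1, 19 rose and 33 fell, in C#2 23 and 28, in C#3 14 and 37, and in C#6 19 and 46. That is 23.4%, 23%, 23% and 29.3% of the list genes, beside 17.2%, 16.9%, 17.2% and 22.4% of all genes. The lists too were chosen with earlier results of these arrays known, so nothing is read from this excess. The list medians were −0.02, −0.03, −0.06 and −0.04. After a second quantile step on the deposited values the list genes called higher and lower numbered 23 and 28 for C#1, 28 and 21 for C#2, 21 and 33 for C#3, and 23 and 38 for C#6. The excess of falls in C#2 thus turned into an excess of rises. In all 4 clones 12 list genes fell, among them GATA3, ESRP1, SDC2 and GPC6, and 4 rose, among them CRB3; the calls of these 5 genes held without any 1 array. Over all genes, 3.65% fell and 1.04% rose in all 4 clones. The 4 comparisons share the same parental arrays, and limma called no gene between C#1 and C#2. A call in all 4 clones is therefore not 4 independent results. The C#1 count of 33 was 18 without parental replicate 3, the C#2 count of 23 was 14 without parental replicate 1 and 13 without parental replicate 3, the C#3 count of 14 was 9 without parental replicate 2, and the C#6 count of 19 was 12 without C#6 replicate 2.

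**Figure D5:**
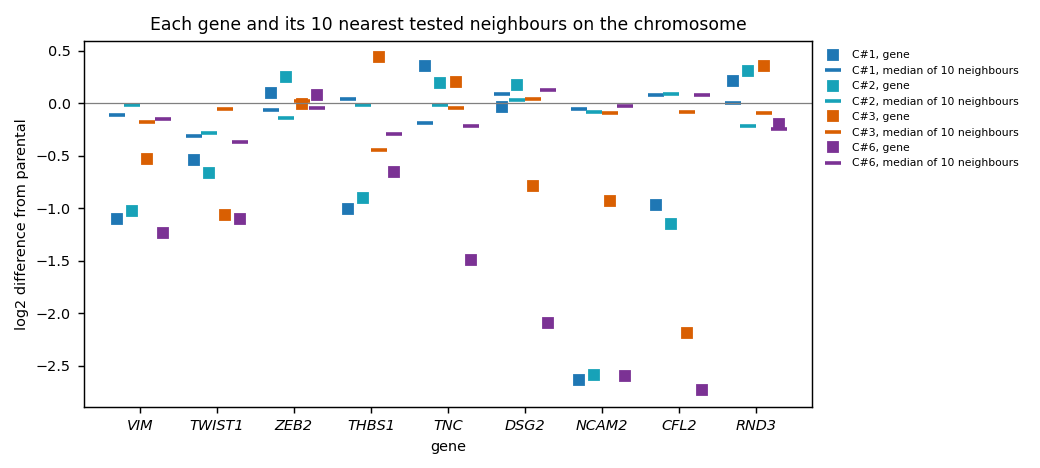
Log2 difference from parental (vertical axis) of each of the 9 genes (squares) and the median of its 10 nearest tested neighbours on the chromosome (dashes), by clone (colours). THBS1 is above 0 in C#3 while the median of its neighbours is −0.45. CFL2 and NCAM2 in every clone, and DSG2 in C#3 and C#6, lie below neighbours whose medians are between −0.09 and 0.13.

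Neighbours on the chromosome were set beside each member, 10 tested genes each, 5 on either side. None of the 10 neighbours of CFL2 was called lower by limma in any clone, and their medians lay between −0.08 and 0.09. Of the neighbours of NCAM2, 2 were lower in C#3 and 0 in the other clones. Of those of DSG2, 1 was lower in C#1 and 1 in C#2, and 0 in C#3 and C#6, where DSG2 itself was lowest; DSC2, called higher in all clones, is one of them. For TWIST1, 5 of 10 neighbours were lower in each of C#1, C#2 and C#6 and 1 in C#3, with medians of −0.31, −0.28, −0.37 and −0.05. For THBS1 in C#3, 8 of 10 neighbours were lower, with a median of −0.45, while THBS1 itself was above parental by 0.44. For TNC, 3, 3, 2 and 4 of 10 neighbours were lower in the 4 clones in order and 0 higher; the 4 were in C#6, where TNC itself was lowest. For VIM, 0, 0, 1 and 2 neighbours were lower, for ZEB2 1, 1, 1 and 3, and for RND3 1, 1, 1 and 4. Copy number was not measured, and the part of gene dosage in these differences was not tested.

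The arrays carried the markers of a luminal breast line. All 16 luminal markers with a symbol were above the dim threshold on every array, with a median log2 level between 9.48 and 9.64 in the 5 groups. Single markers moved both ways: limma called 3, 3, 2 and 3 of the 16 higher in the 4 clones in order and 4, 3, 6 and 5 lower. TFF1 and TFF3 were higher, and GATA3 and ESR1 lower, in all 4 clones; these were named after their values were seen. Of 3 fibroblast markers with a symbol, THY1 alone was above the dim threshold, at 4.72 in the parental line and up to 4.99 in C#2. The summed linear level of the fibroblast markers ranged from 39.5 to 42.3 in the parental line and from 37.4 to 52.3 over the clones. Of 6 endothelial markers 2 and of 5 leukocyte markers 3 were above the threshold on all arrays, with CLDN5 and CD68 the brightest. CD68, a lysosomal protein that epithelial cells also make, set the leukocyte sum, which was 140.0 to 154.0 in the parental line, 212.1 to 490.1 in C#1, 284.9 to 493.1 in C#2, 135.4 to 144.7 in C#3 and 219.8 to 332.0 in C#6. The part of other cell types in the levels of VIM, TNC and the other genes was not tested. The upper quartile of all values was 5.94 to 5.96 on the parental arrays and 5.80 to 5.89 on the clone arrays.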

How the data were processed

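Gene expression was measured in 15 Affymetrix arrays, 3 for each of 5 groups. The authors deposited log2 values for 53617 probe sets; per the submitters' processing notes, Expression Console 1.4.1 from Affymetrix, RMA and the Transcriptome Analysis Console were used, with the step of each not given here. RMA brings the arrays' distributions closer together and compresses differences of dim genes. The deposited distributions were not fully equal, with an upper quartile of 5.94 to 5.96 on the parental arrays and 5.80 to 5.89 on the clone arrays. The balance of falls and rises in the main fit depends on this, as the renewed quantile normalization below shows.

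Symbols came from the platform annotation, updated through the RefSeq gene table (GRCh38.p14), for 16098 probe sets; 37519 without a symbol were not used. A probe set was kept if at least 3 arrays put it above their 40th percentile, and the one with the highest mean stood for a gene. The linear model had a mean for each group and used all 15 arrays (limma 3.58.1, lmFit and eBayes, R 4.3.3), with Benjamini-Hochberg adjustment over 12147 genes within each comparison. The method was tested on simulated data. The p-values rest on the spread between arrays within a group, pooled over the 5 groups and adjusted by eBayes with that of other genes. They do not measure the spread between independent clones. For arrays, the number of replicates limits the precision. Plots used Python 3.11.15 with matplotlib 3.10.9.

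The members and the gene lists were chosen with earlier results of these data known. Named genes are the members, their close relatives, and from each list up to 4 genes, members left out, with the largest called difference whose arrays were separated from parental; of the last, the text gives those calls that held without any 1 array, unless it says otherwise. The counts and named genes of 1 of the 14 lists are not reported here; its genes are in the totals over all lists. On the list of EMT brakes and epithelial regulators the genes that rose are named as well. The neighbours in pattern are the 3 genes nearest to each of the 4 members with the widest range. Alternatives covered the filter, the normalization, the variance model, array weights, several probe sets of a gene, the arrays in the fit, the replicate number as a block, and each array left out.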

Additional observations from a re-analysis of the deposited data

Results flagged for a closer look

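THBS1 differed in direction between clones. Every C#3 array lay above the parental arrays and every array of C#1, C#2 and C#6 below them. The difference from parental in C#1 was lower than that in C#3 by 1.44, given as −1.44 (C#1 minus C#3), that in C#2 by 1.34 (−1.34), and that in C#3 exceeded that in C#6 by 1.09. They pass limma's threshold in the fit over all genes, but THBS1 was chosen with its values known, so that they were not tested independently of that choice.

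AXL, a receptor tyrosine kinase on the mesenchymal marker list, differed in direction between clones by limma. Its difference from parental was 0.35 in C#1 and −0.38 in C#3, which differ by 0.73 (adjusted p = 2.01e-04). In C#2 it was 0.97, which differs from C#3 by 1.35 (adjusted p = 8.63e-07). The calls of AXL against parental in C#1 (adjusted p = 0.0300) and C#3 (0.0219) are lost without some single arrays, parental replicates 1 and 2 among them, with an adjusted p of up to 0.132 and 0.0806.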

How the results depend on the processing

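The log2 differences of the 9 genes kept their sign wherever they were called: of 860 values under alternatives, 856 stayed within 1 SD of the value reported, 0 reversed and 4 moved, those of VIM when its probe sets were averaged (−0.58, −0.60, −0.26 and −0.57 in the 4 clones in order), where the C#3 call of VIM ended. ZEB2 does not pass the stricter filter, which gives no value for it. Array weights raised all genes called in C#1 from 733 higher and 1359 lower to 1401 and 2047, the higher list genes to 32 in C#1 and 22 in C#3 and the higher members to 2 in C#1, and the fit of the 6 arrays of the comparison gave 0 higher members in C#3. With 1 array left out, the higher list genes ranged from 13 to 24 in C#2, 9 to 16 in C#3 and 12 to 20 in C#6, the lower list genes in C#1 from 18 to 36, the higher members from 0 to 1 in C#2 and 0 to 1 in C#3, and the lower members in C#3 from 3 to 5. Renewed quantile normalization changed the share of lower genes among all calls from 65% to 52.1% in C#1, 67.7% to 52.2% in C#2, 63.8% to 50.3% in C#3 and 65.5% to 49.7% in C#6. Same-numbered arrays had correlations of their deviations from −0.13 to 0.46, over 0.1 in 10 of 30 pairs, beside 7 of 60 pairs of different number, whose highest was 0.23. The median correlation was 0.05 for same-numbered pairs and −0.02 for the others, so same-numbered arrays were somewhat more alike. The main fit did not assume pairing and does not account for this. With the replicate block, all genes called in C#1 were 825 higher and 1490 lower. The lower list genes were then 35, 33, 38 and 50 in the 4 clones in order, and the members called lower were 5, 5, 5 and 7. Of 135 calls of named genes outside the 9, 94 held without any 1 array, 41 were lost without at least 1 array, and 0 values reversed. Of these 41, 40 were lost when a parental array was left out. Brightness near background limits ZEB2, TWIST1 and, in C#6, CFL2. Outside the 9 it also limits ANXA1 and MMP16 in the clones, CNTN3 in C#3 and C#6, and NCAM1, RND2, SNAI2, TWIST2 and MIR200B.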
